A study of Gorilla gorilla with 12 samples.

Results

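The genes described here are brakes and early drivers of the cell cycle in gorilla fibroblasts, the connective tissue cells that grow out of skin and other tissues in culture. They are 5 inhibitors of cyclin-dependent kinases (CDKN1A, CDKN1B, CDKN1C, CDKN2A and CDKN2C), the 3 D-type cyclins (CCND1, CCND2 and CCND3) and 2 genes first found by their induction in arrested fibroblasts (GAS1 and GAS6). They were taken by name, with every probe set (the group of probes that measures 1 transcript) whose annotation gives that symbol alone. Of the 10 genes, 9 had such a probe set, 20 probe sets in all, and CDKN2C had none. After a filter on low mean level, 17 probe sets of 8 of these genes were tested, out of 7541 probe sets of the whole array and 5480 of its 8229 genes with a symbol of their own. The 3 probe sets that did not pass were all those of CDKN1B.

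Each of the 12 arrays held total RNA of 1 fibroblast culture. The second culture of male line 2 (KB_7621, from a donor aged 26 years) was harvested at 50% confluence, so that cells covered part of the dish. The 11 cultures harvested under the study's standard conditions were 1 per animal, from 5 normal males of 19, 26, 24, 18 and 3 years and from 6 normal females of 19, 19, 35, 26, 30 and 2 years. No genotype or treatment is given in the labels, the sources used here give neither tissue of origin nor passage number, and lines are numbered here by sex in the order of deposit.

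Cells pass from G1 into S phase when D cyclins with CDK4 or CDK6, and then cyclin E with CDK2, inactivate the RB protein and free the E2F factors. The CIP/KIP inhibitors p21 (CDKN1A), p27 (CDKN1B) and p57 (CDKN1C) bind cyclin-CDK complexes, while the INK4 inhibitors p16 (CDKN2A) and p18 (CDKN2C) bind CDK4 and CDK6 themselves. Crowding or loss of serum stops fibroblasts in a reversible resting state, in which GAS1 and GAS6 were first described in mouse cells. TOP2A, the topoisomerase that untangles replicated DNA, and CCNB2, a cyclin of mitosis, are made in cycling cells, so their level served as the scale on which the cultures were placed.

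Deposited intensities are linear whole numbers with a floor of 100, so that a probe set at 100 may lie anywhere below it. Between 40.1% and 49.2% of probe sets stood at the floor on each array, and array medians ran from 105 to 148. All 11 fibroblast markers with a probe set were above the floor on all 11 standard arrays, with a summed intensity between 85606 and 140924, while the endothelial VWF, the leukocyte PTPRC and the keratinocyte KRT5 and KRT14 stood at the floor on all of them. Of the markers of other cell types, KRT10 (keratinocytes), CD3E (T cells) and MLANA (melanocytes) were above the floor on all 11. Summed over each list the intensities were 1940 to 3558 for keratinocytes and epithelium, 400 to 627 for endothelium, 516 to 2273 for blood and immune cells, 306 to 841 for melanocytes and 400 to 873 for skeletal muscle; the part of such cells in the results was not tested. The Y-linked RPS4Y1 was between 2662 and 4363 in male lines and between 100 and 115 in 5 lines labelled female, but 2595 in the line labelled female 3. That line goes against its label. Slopes of the genes described here on the index defined next are also given without it where they change by over 1.5 times or turn. Counts of these genes on the index are treated likewise, while slopes of other genes are not given without it.

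The cycling index of an array is the mean of the log2 levels of TOP2A and CCNB2, each by its brightest probe set. It was 9.90 in the culture at 50% confluence and 8.27 in the standard culture of the same line. In the standard cultures of male lines 1 to 5 it was 10.47, 8.27, 8.81, 9.28 and 9.65. In lines labelled female 1 to 6 it was 8.41, 9.21, 7.36, 7.98, 9.75 and 8.58. The standard cultures thus spanned about 3 log2 units, with male 1 at the top and female 3 at the bottom, and the culture at 50% confluence lay within that span, above 10 of the 11. The index averaged 9.30 ± 0.84 in male lines (SD, n = 5) and 8.55 ± 0.85 in lines labelled female (SD, n = 6), a difference within the spread between lines (two-sided exact permutation p = 0.175). Female 3, with the lowest index, was kept under its label here, and the difference without it was not examined. It showed Pearson's r of -0.07 with the array median, 0.03 with the share of probe sets at the floor, 0.10 and -0.25 with the 3' to 5' ratios of GAPDH and ACTB, and -0.37 with donor age (permutation test, adjusted p = 0.923 for each of the 5).

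Across the 11 standard arrays, no probe set of these genes passed the test against the cycling index, and the slopes of all 17 were below 0, of 15 without female 3 and of 16 without male 1. The slope, in log2 units of intensity per log2 unit of index, passed for 44 of 7537 probe sets (0.584%; limma, adjusted p under 0.05), 37 upward and 7 downward, and for 0 of 17 here. At a limma unadjusted p under 0.05, 8 of 17 had a negative slope, against 5.21% of all tested probe sets, and the share of slopes below 0 among all tested was 49.4%. Without female 3, CDKN1A, CCND2 36650_at and GAS1 661_at left that count, at a limma unadjusted p of 0.211, 0.297 and 0.0669. CDKN1C 38673_s_at entered it at 0.0471. Without male 1, CDKN1A and CCND2 36650_at left it, at 0.0530 and 0.0735. The 17 probe sets measure 8 genes, and probe sets of the same gene can nearly repeat each other. Their r was 0.97 for GAS1 and between 0.96 and 0.98 for GAS6. Both probe sets of GAS1 and all 3 of GAS6 were among those 8 of 17. Counts out of 17, here and below, are therefore not counts of independent measurements. The median slope was -0.31 for the 17 probe sets and 0.0025 for all tested ones. A permutation test of Pearson's r called 11 probe sets (0.146%), that of Spearman's rho called 3, and neither called any of the 17. In RNA of a whole culture, fewer cells that make a transcript and less transcript per cell cannot be told apart.

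**Figure D1:**
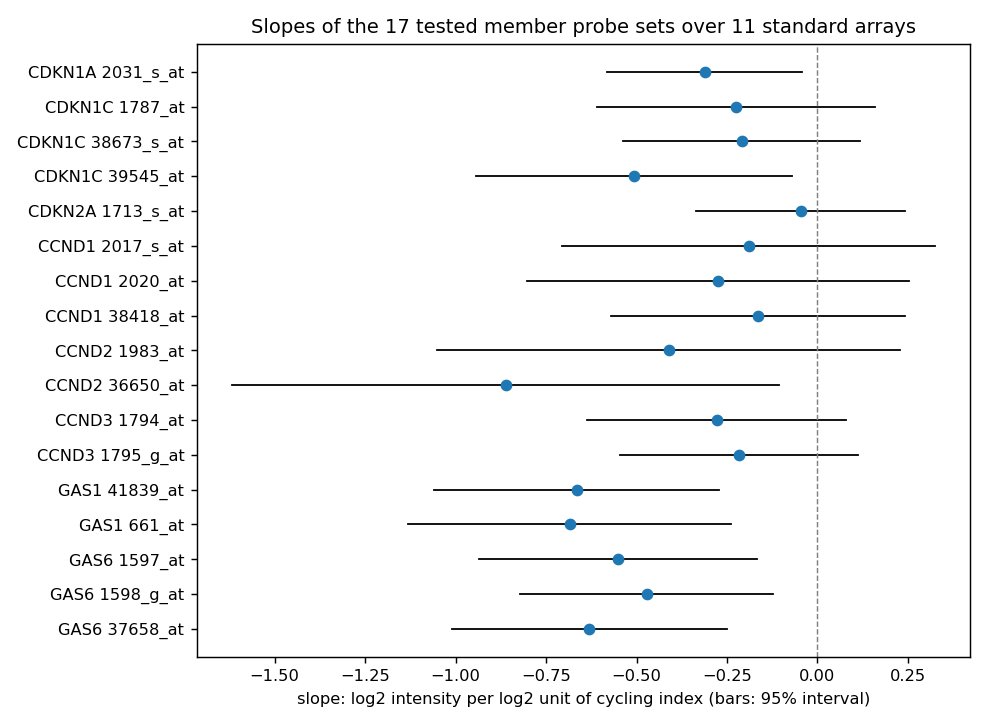
Slope of log2 intensity per log2 unit of cycling index for the 17 tested probe sets (points) with its 95% interval from limma (bars), over 11 standard arrays. All points lie left of 0, and the intervals of 8 probe sets (CDKN1A, CDKN1C 39545_at, CCND2 36650_at, both of GAS1 and all 3 of GAS6) do not reach 0 before adjustment.

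CDKN1A encodes p21, the inhibitor that p53 induces. Its probe set 2031_s_at had 4425, 8479, 4379, 4817 and 4777 in male lines 1 to 5. In lines labelled female its lowest, median and highest intensities were 4519, 5582 and 9856. Of the 11 standard cultures, female 3 and male 2 stood apart at the high end, and the other 9 lay between 4379 and 6643. The slope on the index was -0.31 (SE 0.13, limma adjusted p = 0.378), and r was -0.65 (rho -0.65, permutation adjusted p = 0.391 and 0.429). Without the arrays farthest from the median index, male 1 and female 3, r was -0.32; leaving out the ends of the index also narrows its range, which by itself lowers r. The slope was -0.34 without male 1 alone and -0.19 without female 3 alone. The 3 genes whose levels most resembled CDKN1A over the 11 lines were SMOX (r = 0.94), LRRC32 (r = 0.93) and CCNG1 (r = 0.90), of which CCNG1, cyclin G1, is a p53 target. CCNG1 was also highest in female 3, at 1110, and male 2, at 810.

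CDKN1B, which encodes p27, gave no usable level. Its 3 probe sets stood at the floor on nearly every array, with 138, 104 and 102 as the only values above 100. These values say only that the probe sets did not detect the transcript in these RNAs. p27 is controlled largely through its breakdown, in which CKS1B, a small adaptor of the ubiquitin ligase SCF-SKP2, takes part. CKS1B had a slope of 0.81 (SE 0.15, limma adjusted p = 0.0218), with intensities between 253 in female 3 and 1405 in male 3. Whether this call held without female 3 was not examined.

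CDKN1C encodes p57, an inhibitor from an imprinted locus. Its brightest probe set, 39545_at, had 222, 405, 208, 507 and 208 in male lines 1 to 5. The lines labelled female had a lowest value of 165, a median of 377 and a highest of 1176. The groups overlapped, and female 4, whose index was the second lowest, held the high value alone. The slope was -0.51 (SE 0.20, limma adjusted p = 0.378), with r = -0.58 over 11 arrays (rho -0.55, permutation adjusted p = 0.490 and 0.549). Leaving out male 1 and female 3 gave r = -0.70 (exact permutation p = 0.0326 over 9 arrays, adjusted p = 0.586), and leaving out female 4 gave a slope of -0.32. The other probe sets of the gene, 1787_at and 38673_s_at, reached no more than 316 and 241, had medians in male lines at the floor, and had slopes of -0.23 and -0.21, which were -0.06 and -0.11 without female 4, and -0.37 and -0.38 without female 3. Across arrays the 3 probe sets ran together (r between 0.76 and 0.89).

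CDKN2A, the locus of p16 and of ARF, was at the edge of detection. Its probe set 1713_s_at had 120 in male 1 and the floor of 100 in the other 4 male lines. Among lines labelled female it had 201 in female 2, 172 in female 3 and the floor in the other 4. It showed a slope of -0.05 (SE 0.14), which turned to 0.11 without female 3, so no direction can be given. CDKN2B, the neighbouring INK4 gene for p15, stood at the floor on all 12 arrays with both of its probe sets.

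The D cyclins differed greatly between lines, and none of their slopes on the index passed the test. The SD over the 11 lines placed CCND2 at percentiles 98.8 and 99.6 of all tested probe sets, CCND1 between 84.4 and 96.0, and CCND3 at 67.8 and 78.9. CCND2, which like its relatives activates CDK4 and CDK6, had 166, 500, 1036, 637 and 206 in male lines 1 to 5 with probe set 36650_at. In lines labelled female the lowest, median and highest were 127, 345 and 2693, a 21.2-fold range over all 11 lines, with female 6 lowest and female 3 highest. The slopes were -0.86 (SE 0.35, limma adjusted p = 0.384) for 36650_at and -0.41 (SE 0.30, adjusted p = 0.653) for 1983_at. Over 11 arrays r was -0.54 and -0.35 (rho -0.45 and -0.22, permutation adjusted p of r = 0.547 and 0.736). Without male 1 and female 3, r was -0.13 and -0.06, over the narrower range of the index. The slopes were -0.89 and -0.43 without male 1 alone, but -0.44 and -0.20 without female 3 alone.

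CCND1, the D cyclin that growth factors induce through RAS signalling, was measured by 3 probe sets. With 38418_at it had 11684, 8999, 15356, 10445 and 8322 in male lines 1 to 5. The lines labelled female had a lowest value of 6798, a median of 10717 and a highest of 21292. Females 2 and 3 were highest, at 21292 and 20956, although the first had a higher index than 6 of the 11 cultures and the second the lowest of all. Slopes were -0.16, -0.27 and -0.19 (SE 0.19, 0.25 and 0.24, limma adjusted p between 0.736 and 0.837) for 38418_at, 2020_at and 2017_s_at. Without female 3 the slopes were 0.023, -0.012 and -0.042, and without male 1 that of 2017_s_at was 0.15, so no direction can be given for CCND1.

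The probe sets of CCND1 did not tell 1 story. Probe sets 2020_at and 38418_at ran together over the 11 lines (r = 0.97), whereas 2017_s_at had r = 0.48 and 0.47 with them. Its intensity as a ratio to 38418_at was 0.204 in the culture at 50% confluence and 0.461 in the standard culture of that line. Among the other standard cultures the ratio was 0.136 in male 1 and 0.105 in female 4, against 0.312 to 0.546 in the rest. In those 3 cultures, then, the signal of 2017_s_at was low relative to that of the other CCND1 probe set, and which part of the transcript each probes was not examined here.

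CCND3, the D cyclin found most widely across tissues, had 874, 719, 1361, 1121 and 580 in male lines 1 to 5 with probe set 1795_g_at. Values in lines labelled female ran from 613 to 1613, with a median of 1133. Its slopes were -0.22 and -0.28 (SE 0.15 and 0.17, limma adjusted p = 0.645 and 0.570) for 1795_g_at and 1794_at, and -0.09 and -0.15 without female 3. Of the 21 pairs among the 7 genes with a probe set above the floor on all 11 arrays, CCND1 and CCND2 were most alike (r = 0.82, rho = 0.87, permutation p = 0.00099, adjusted p = 0.319 over all tested probe sets). Without male 1 and female 3 this r was 0.80. CCND3 had r = 0.27 with CCND1 and 0.17 with CCND2, and the genes it most resembled were USF2 (r = 0.90), IL6 (r = 0.89) and CXCL12 (r = 0.85).

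**Figure D2:**
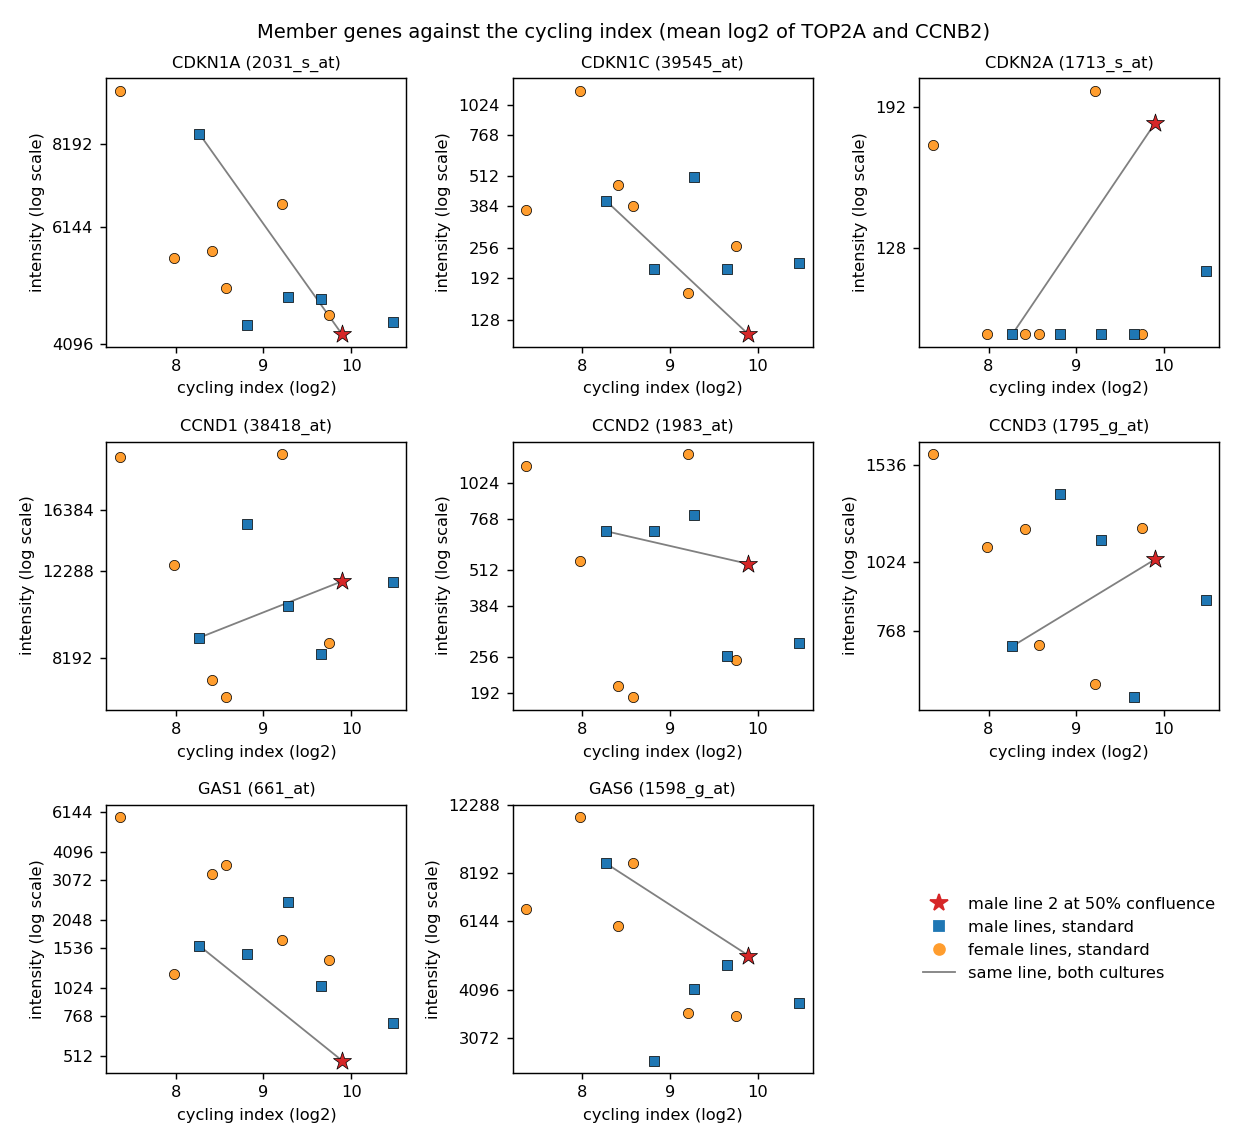
Deposited intensity (log axis) of the brightest probe set of each of 8 genes against the cycling index (log2), 1 point per array. The red star and the blue square joined by a line are both cultures of male line 2. Points of GAS1 and GAS6 mostly lie lower toward the right (no slope passed the test), the D cyclins scatter, and CDKN2A lies at the floor of 100 in 8 of 11 standard cultures.

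GAS1 and GAS6 had the 5 smallest p-values among these probe sets in the test against the index. GAS1 encodes a membrane protein that binds Hedgehog ligands and can halt entry into S phase. With probe set 661_at it had 717, 1569, 1447, 2459 and 1042 in male lines 1 to 5. In lines labelled female the lowest, median and highest were 1175, 2475 and 5850. Male 1, with the highest index, had the lowest GAS1, and female 3, with the lowest index, had the highest. The slopes were -0.67 (SE 0.18, limma adjusted p = 0.171) for 41839_at and -0.68 (SE 0.21, adjusted p = 0.226) for 661_at. Correlations were r = -0.72 and -0.68 (rho -0.69 and -0.57, permutation adjusted p between 0.323 and 0.529), and -0.43 and -0.25 without male 1 and female 3, over the narrower range of the index. The slopes were -0.67 and -0.60 without male 1 alone and -0.52 and -0.50 without female 3 alone. The genes GAS1 most resembled were OSMR (r = 0.90), CEBPB (r = 0.88) and LGALS3 (r = 0.87).

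GAS6 encodes a vitamin K-dependent ligand of the receptor kinases TYRO3, AXL and MERTK. With probe set 1598_g_at it had 3780, 8684, 2682, 4097 and 4738 in male lines 1 to 5. Values in lines labelled female ran from 3498 to 11451, with a median of 6293. Females 1, 3, 4 and 6 and male 2, the 5 cultures with the lowest indices, had 5980 or more, and the other 6 had 4738 or less, so the cultures split at the same point on both scales. The same 5 cultures were the highest with the other probe sets too, at 4219 or more against 3935 or less with 1597_at, and at 2939 or more against 2068 or less with 37658_at. The slopes were -0.55, -0.47 and -0.63 (SE 0.18, 0.16 and 0.18, limma adjusted p = 0.249, 0.286 and 0.181) for 1597_at, 1598_g_at and 37658_at. Correlations were r = -0.67, -0.66 and -0.72 (rho -0.67, -0.73 and -0.71, permutation adjusted p between 0.327 and 0.401). Unlike those of GAS1, they were of like size without male 1 and female 3, at r = -0.70, -0.71 and -0.65 (exact permutation p = 0.0432, 0.0384 and 0.0624 over 9 arrays, adjusted p between 0.592 and 0.635); the difference between the genes was not tested. Without female 3 alone the slopes were -0.73, -0.60 and -0.75. Without male 3, whose GAS6 was low for its index, 37658_at passed the test (slope -0.64, limma adjusted p = 0.0451). Calls over the whole array then numbered 76, against 44 with all lines. Leaving out any other line gave 37658_at a limma adjusted p between 0.210 and 0.389.

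AXL, a receptor of GAS6, leaned the other way. With probe set 38433_at it had 8818, 3834, 5169, 4985 and 7975 in male lines 1 to 5. Lines labelled female had 1988 at the lowest, 5195 at the median and 7961 at the highest. The 3 cultures with the highest index, male 1, female 5 and male 5, were the only standard cultures at 7961 or more. The slopes of 38433_at and 1278_at were 0.52 and 0.54 (SE 0.13 and 0.12, limma adjusted p = 0.125 and 0.0757), short of the threshold. The dimmer probe set 1233_s_at had r = 0.33 with the index over 11 arrays and -0.68 without male 1 and female 3, where the others had 0.61 and 0.72, so the probe sets of AXL disagree. TYRO3 showed slopes between 0.00019 and 0.10.

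**Figure D3:**
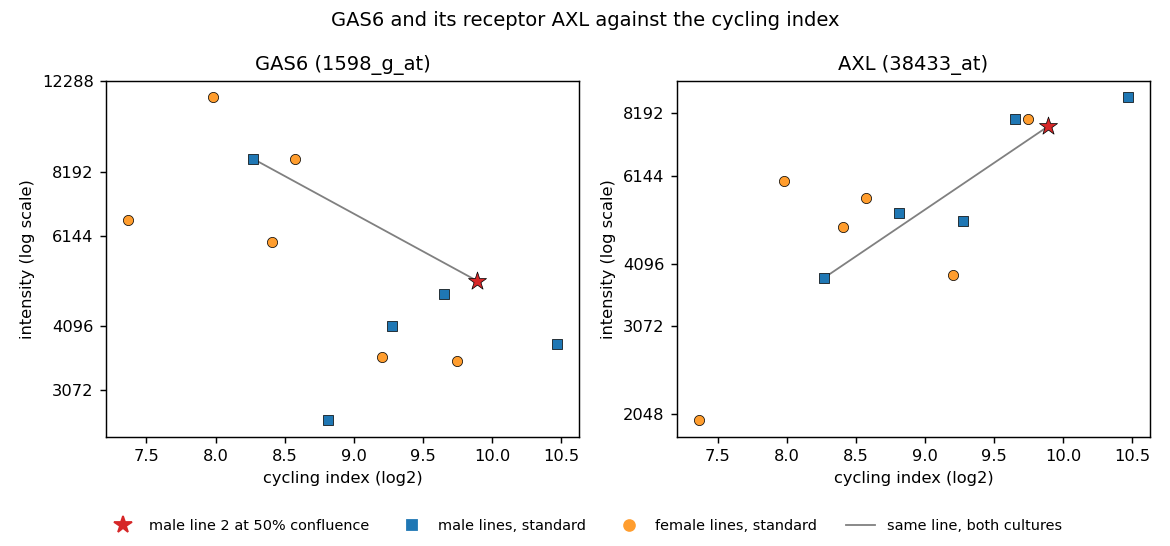
Deposited intensity (log axis) of GAS6 (1598_g_at, left) and AXL (38433_at, right) against the cycling index (log2) on 12 arrays; squares are male and circles female standard cultures, and the line joins both cultures of male line 2. GAS6 is at 5980 or more in the 5 standard cultures with the lowest index, and AXL is at 7961 or more in the 3 with the highest.

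Among the other genes of these pathways, listed by function, the positive calls lay in 3 lists. Of genes for other CDK inhibitors and the turnover of p27, 3 of 6 tested were called with a positive slope and 0 with a negative one. They were CKS1B as above, CKS2, its paralogue (slope 0.81, SE 0.15, limma adjusted p = 0.0218), and CDKN3 (slope 0.85, SE 0.15, adjusted p = 0.0162). CDKN3 is a phosphatase of CDK1 and CDK2 that is itself made in cycling cells. Mitosis genes, which the index itself resembles, had 10 of 22 called and all 22 slopes positive, with a median of 0.70. Replication genes had 1 of 20 called, TK1, and 19 of 20 slopes positive, with a median of 0.63. Over the whole array 37 of 7537 probe sets were called with a positive slope, but only 6 without female 3. That is fewer than the 10 mitosis calls alone, so not all calls in these lists held without female 3. Which of them did was not examined. No gene was called among 10 G1 cyclins and kinases, where CDK2 (slope 0.42) had the smallest p, or among 8 RB and E2F genes. None was called among 10 p53 genes, 11 regulators upstream of D cyclins, 12 genes of TGF-beta arrest and FOXO, 3 GAS6 receptors and relatives, 2 Hedgehog partners of GAS1 and 10 other growth arrest genes. In the last list 9 of 10 slopes were negative, with a median of -0.16, and the smallest p-values were those of IGFBP7 (slope -0.60), TXNIP (-0.45) and IGFBP2 (-0.81), with limma adjusted p of 0.372, 0.426 and 0.536.

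The labels allow 1 comparison of culture density, that of the 50% confluent with the standard culture of male line 2. Each condition had 1 array, so there is no replicate check and no p-value, and folds are given from quantile-normalized values beside deposited intensities. Of the 17 probe sets, 5 were lower by 2-fold or more at 50% confluence, against 545 of 7541 (7.23%) of all tested, and 1 was higher by 2-fold or more, CDKN2A against a standard value at the floor, with 531 (7.04%) of all tested. The median difference of the 17 was -0.38 and that of all tested 0 on the log2 scale. As the index shows, the culture at 50% confluence had the higher level of TOP2A, at 1142 against 596, and of CCNB2, at 848 against 182.

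GAS1 was lower at 50% confluence with both probe sets. At 50% confluence 41839_at and 661_at had 467 and 487, against 1255 and 1569 in the standard culture, which is 2.76-fold and 3.25-fold lower. CDKN1C 39545_at had 111 at 50% confluence and 405 in the standard culture, 2.91-fold lower, and its other probe sets were at the floor in both. CDKN1A had 4233 at 50% confluence and 8479 in the standard culture, 2.08-fold lower. These 4 probe sets were also below the range of all 11 standard arrays, as were 466 of all tested (6.18%). For CDKN1A the margin was narrow, 4233 against a lowest standard value of 4379.

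GAS6 was lower at 50% confluence with all 3 probe sets, at 3543, 5015 and 2531 against 7980, 8684 and 4490 in the standard culture, or 2.40-fold, 1.81-fold and 1.88-fold lower. All 3 values stayed inside the range of the standard lines. AXL had 7718 at 50% confluence and 3834 in the standard culture with 38433_at, and 7264 and 3738 with 1278_at, while 1233_s_at had 1011 and 1283. TYRO3 had 662 at 50% confluence and the floor in the standard culture with 1063_s_at, at least 6.62-fold higher by deposited intensities. With its other probe sets it had 554 against 210 and 494 against 247.

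The D cyclins gave no common direction. CCND3 had 677 and 1035 at 50% confluence, against 427 and 719 in the standard culture, 1.64-fold and 1.36-fold higher. CCND1 had 8473 and 11717 at 50% confluence with 2020_at and 38418_at, against 4809 and 8999, but 2394 against 4146 with 2017_s_at. CCND2 had 928 at 50% confluence and 500 in the standard culture with 36650_at, but 538 and 699 with 1983_at. CDKN2A had 183 at 50% confluence and the floor in the standard culture, at least 1.83-fold higher by deposited intensities and 2.07-fold after quantile normalization. CKS1B, CDKN3 and CKS2 were 3.71-fold, 3.12-fold and 2.83-fold higher at 50% confluence.

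**Figure D4:**
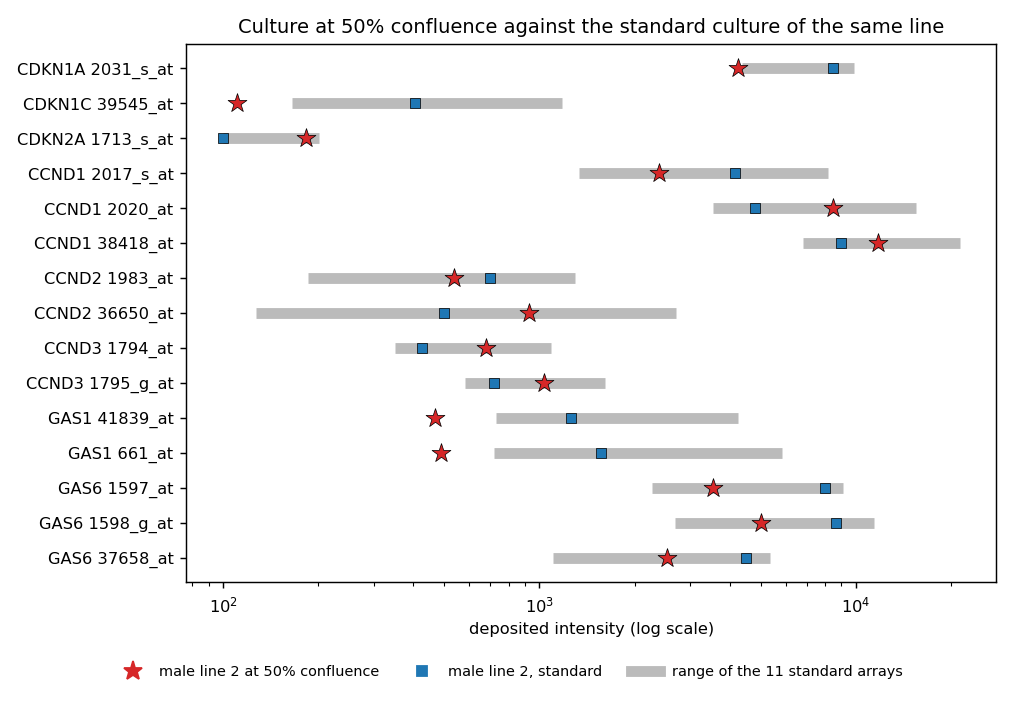
Deposited intensity (log axis) of 15 tested probe sets in the culture of male line 2 at 50% confluence (red star) and in its standard culture (blue square), over the range of the 11 standard arrays (grey bar); 2 CDKN1C probe sets at the floor in both are left out. The stars of CDKN1A, CDKN1C and both GAS1 probe sets lie below the grey bar, and those of the D cyclins lie within it.

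A straight line through the standard arrays gave the level that each probe set would have at the index of the 50% confluent culture; this comparison was chosen after the values were seen. Below its 95% prediction interval lay 123 of 7537 probe sets (1.63%) and above it 121 (1.61%), and 0 of the 17 lay on either side. GAS1 had log2 levels of 8.89 and 8.96 at 50% confluence, against predicted levels of 9.91 and 10.17, with lower limits of 8.42 and 8.44. CDKN1A was 12.01 at 50% confluence, against a predicted 12.15. The intervals were wide, 8.44 to 11.89 for GAS1 661_at, so shifts well over 2-fold would lie inside them.

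The scaling of the arrays moves all these differences. The median difference of all tested probe sets was 0 with quantile normalization, -0.05 with the values as deposited and 0.44 with median scaling. The share of 2-fold calls that were higher at 50% confluence was 49.3% (531 higher and 545 lower), 30.9% (379 and 846) and 85.0% (1314 and 231). With the values as deposited and relative to that median, CDKN1A was at -0.95, CDKN1C 39545_at at -1.82, and GAS1 at -1.37 and -1.64. GAS6 was at -1.12, -0.74 and -0.77. Median scaling gives the same relative values by construction, so it adds no further check of them. CCND2 1983_at was at 0.12 with median scaling, which raises all probe sets alike, and at -0.33 relative to the median. Of the 17 probe sets, 5 were lower and 0 higher by 2-fold or more with the values as deposited. With median scaling 2 were lower (CDKN1C 39545_at and GAS1 661_at) and 5 higher (CDKN2A, both of CCND3, CCND1 2020_at and CCND2 36650_at).

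No difference between male and female lines passed the test for any gene. Of 7541 probe sets 0 were called (0%, limma, adjusted p under 0.05), 398 had an unadjusted p under 0.05, and 0 of the 17 were called. Female 3 was kept under its label, although its RPS4Y1 of 2595 was near the male range of 2662 to 4363. The test can therefore miss true differences between the sexes. Without female 3, 1 probe set of the whole array was called. Male minus female differences were below 0 for 16 of the 17, against 51.1% of all tested, with a median of -0.24 against -0.0081; CCND2 1983_at was the exception, at 0.18. Leaving out each line gave between 12 (without female 2) and 17 below 0, with 13 and a median of -0.15 without female 3. The largest were those of GAS1, whose intensity averaged 1165 ± 465 in male lines and 2263 ± 1220 in lines labelled female with 41839_at (SD, n = 5 and 6), and 1447 ± 659 and 2817 ± 1796 with 661_at. On the log2 scale the differences were -0.84 (SE 0.38) and -0.83 (SE 0.42), with limma adjusted p = 0.888 for both and exact permutation p of 0.0909 and 0.130. With the cycling index as a covariate they were -0.42 and -0.40, and without female 3 they were -0.62 and -0.58. The interaction of sex with the cycling slope was called for 0 of 7537 probe sets by limma, with 330 at an unadjusted p under 0.05.

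Donor age left no called gene either, and the D cyclins leaned upward with it. Slopes per 10 years, with sex as a covariate, passed for 0 of 7541 probe sets (0%; limma), 407 of which had an unadjusted p under 0.05. With a positive slope at that unadjusted p there were 4 of the 17, against 2.51% of all tested, and these were both probe sets of CCND2 (0.61 and 0.84, SE 0.24 and 0.32) and both of CCND3 (0.35 and 0.33, SE 0.14 and 0.12), with limma adjusted p between 0.851 and 0.855. CCND1 had 0.39 and 0.30 with 2020_at and 38418_at and -0.0037 with 2017_s_at. The youngest donors, male 5 at 3 years and female 6 at 2 years, had 206 and 127 of CCND2 36650_at, while female 3, the oldest at 35 years, had 2693. The RPS4Y1 level of female 3 goes against its sex label, and its age comes from the same labels. Without female 3 the CCND2 slopes were 0.49 and 0.53, and those of CCND3 were 0.29 and 0.28. With adult donors alone the CCND2 slopes were 0.40 and 0.80. The interaction of sex with age was called for 0 of 7541 by limma, with 284 at an unadjusted p under 0.05.

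**Figure D5:**
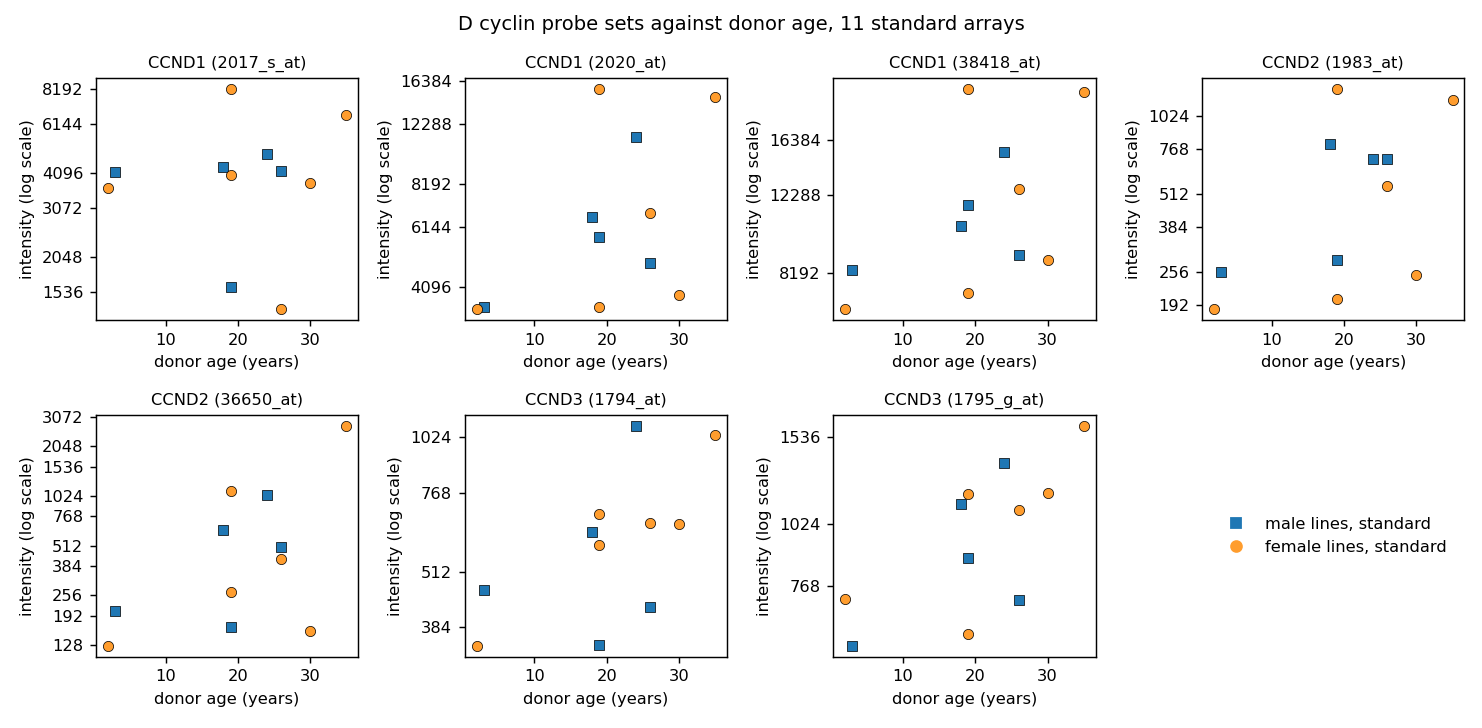
Deposited intensity (log axis) of 7 D cyclin probe sets against donor age in years for the 11 standard cultures, squares male and circles female. The youngest donors, of 2 and 3 years, sit in the lower part of CCND2 and CCND3, with wide scatter between 18 and 30 years. The donor labelled 35 years sits at or near the top, and is female 3, whose RPS4Y1 goes against its sex label.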

How the data were processed

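The deposited values are linear intensities in whole numbers (12625 probe sets, 12 arrays); of the software, scaling and floor behind them the sources used here say nothing. Symbols come from the platform annotation (10961 probe sets with 1 symbol, 545 with several, 1119 not listed), and all 10 gene names stand in the gorilla table of assembly NHGRI_mGorGor1-v2.1. The array was designed on human sequence, so a mismatch to gorilla RNA can lower a probe set. Levels of different genes are therefore not compared, apart from the summed intensities of cell type markers, which the same mismatch can affect. The 67 control probe sets were left out. Intensities were taken to log2 and quantile normalized, and probe sets with a mean above the 40th percentile were tested. Slopes and differences over the 11 standard arrays came from limma 3.58.1 in R 4.3.3 (lmFit, eBayes, Benjamini-Hochberg, 0.05), and correlations from 100000 two-sided permutations. P-values of likeness between genes were adjusted the same way. Steps were tested on simulated data. The number of arrays limits the precision. Each standard array is another animal. The genes named were all members of the set, those called in each pathway list or else its smallest p-values, and the 3 most alike by Pearson's r; AXL, TYRO3, CDKN2B and CCNG1 values per line were added after they were seen. The members and lists were chosen with earlier results of these data known.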

Additional observations from a re-analysis of the deposited data

Results flagged for a closer look

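Of 37 sets of values (a probe set in 1 sex, 5 or 6 standard cultures), 10 held a culture far from the others by Dixon's ratio, where chance gives about 1 in 20. In 4 of the 10 every other value of the set stood at the floor, so that any value above 100 was marked by construction, and their number cannot be set against that rate. CDKN1A was high in male 2, at 8479, with the next male line at 4817. CCND1 2017_s_at was low in male 1, at 1594, with the next at 4118. CDKN1C 39545_at was high in female 4, at 1176, with the next at 471. GAS6 37658_at was high in male 2, at 4490, with the next at 2068.

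The other flags lie near the floor of 100. They were CDKN1C in male 4, at 193 with 1787_at and 153 with 38673_s_at, and CDKN2A in male 1, at 120. CDKN1B made up the rest, with 138 in female 1 (2034_s_at), and 102 in male 2 and 104 in female 3 (33847_s_at).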

How the results depend on the processing

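Slopes on the cycling index were called for 44 probe sets, for 18 with no filter on level, 19 with a floor of 200, 17 with TOP2A alone as the index, 74 with the mean of the mitosis list and 15 with sex as a covariate. Leaving out each line gave 8 (without female 3) to 76 (without male 3), and 23, 29 and 25 without male 1, female 4 and female 5; the cause was not tested. Correlations called fell to 0, from 11, without the arrays farthest from the median index, where fewer arrays enter. Sex calls numbered 1 without female 3 and 2 with the 50% confluent array standing for male 2 (leaving out each line, 0 to 1), and age calls 0 throughout. Differences of 2-fold or more between the cultures numbered 1076, and 536 with a floor of 200, which shrinks dim differences by construction. The slope of CDKN2A turned to 0.0024 with a floor of 200, 0.026 with the 50% confluent array in place, 0.019 with CCNB2 alone and 0.019 with sex as a covariate. Leaving out each line, it ran from -0.11 to 0.11, that of CCND1 38418_at from -0.21 to 0.023, and that of CCND1 2017_s_at from -0.44 to 0.15. No paired test was possible, since each standard array is another animal and only male line 2 had a second culture. Values at the floor of 100 limit what CDKN1B, CDKN2A and CDKN1C can show.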

Other observations

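Some other arrest genes also differed between both cultures of male line 2. Of 10 tested genes in the list of other growth arrest genes, 3 were lower by 2-fold or more at 50% confluence and 0 higher. Of all 7541 tested probe sets, 545 (7.23%) were lower and 531 (7.04%) higher. The list had no common direction, with a median difference of -0.18 on the log2 scale. Its members BTG1 and EMP1 were 1.95-fold and 1.62-fold higher at 50% confluence. IGFBP2, a secreted IGF-binding protein, had 550 at 50% confluence and 6346 in the standard culture. IGFBP7, another secreted IGF-binding protein, had 1074 at 50% confluence and 4362 in the standard culture, and TXNIP, an inhibitor of thioredoxin, 1449 and 3069. Of 12 tested genes of TGF-beta arrest and FOXO, 2 were higher by 2-fold or more at 50% confluence and 0 lower. They were TGFBI and ID1, targets of TGF-beta and BMP signalling. TGFBI had 6800 at 50% confluence, above the highest standard line at 3634, and 1016 in the standard culture. ID1, which opposes differentiation factors, had 12362 and 2897, while ID3 of the same list had 8529 and 8608. ID1 stood in the range of the standard lines, whose median was 7577. TCF7L2, a WNT effector and the only 1 of 11 tested regulators upstream of D cyclins past 2-fold, had 173 at 50% confluence and 519 in the standard culture. MNAT1, the assembly factor of the CDK-activating kinase, had 276 at 50% confluence and the floor in the standard culture. It was the only 1 of 10 tested G1 cyclins and kinases past 2-fold. GLI3, a Hedgehog transcription factor and 1 of 2 tested partners of GAS1, had 202 at 50% confluence and the floor in the standard culture. There is 1 array per condition, so none of these differences has a replicate check.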
